A study of Mus musculus with 8 samples.

Results

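Subunits of the NADPH oxidases were followed in embryonic cells that carry CD31 (PECAM-1) and that either had or lacked the +9.5 enhancer of Gata2. The gene set had 7 members, chosen by symbol: Cybb, Cyba, Ncf1, Ncf4, Rac2, Hvcn1 and Nox4. They were measured by 11 of the 55681 non-control probes, and all 11 passed the filter on dim probes. The fit held 40299 features, 7 of them members.

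NADPH oxidases move electrons from NADPH across a membrane to oxygen and so make superoxide. In the phagocyte enzyme, a membrane flavocytochrome of Cybb (gp91phox, NOX2) and Cyba (p22phox) is switched on when cytosolic proteins, among them Ncf1 (p47phox) and Ncf4 (p40phox), and a GTP-loaded Rac join it. This enzyme is known for killing microbes in neutrophils and macrophages and, at lower output, for redox signalling in endothelium. Nox4 is a relative of Cybb that also needs Cyba but none of the cytosolic subunits, and it is known from endothelial, kidney and smooth muscle cells.

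The embryos were C57Bl/6J at stage E12.5, 4 of genotype Gata2+9.5-/- and 4 wild type littermates, all from crosses between Gata2 +9.5+/- parents. The +9.5 element is an intronic enhancer of Gata2, the gene of a GATA-binding transcription factor of blood progenitors. The mutation is carried by every cell of the embryo. Each genotype gave 2 embryos in each of 2 litters. Samples 1 and 2 of either genotype came from litter 1, and samples 3 and 4 from litter 2. Liver and brain had been removed, so cells of the fetal liver were not sampled as such. CD31-bearing cells of the rest of each embryo were caught on magnetic beads, and the RNA of 1 embryo went onto 1 one-colour array. All arrays of a litter lay on 1 slide, so litter and slide cannot be told apart. A level is given below as log2 of the processed signal minus the array's 75th percentile, so that 0 is the signal of that percentile and 1 unit is a doubling. In such a mixed preparation fewer cells of a type and less RNA per cell cannot be told apart.

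The signal at the 75th percentile lay between 996 and 2481, and 74.9% to 92.0% of the non-control spots were well above background. The number of arrays, 4 for each genotype, limits the precision. Gata2 itself, which checks the labels, stood at 0.89 to 2.00 in wild type samples and at -1.27 to -0.15 in mutants. All 4 mutants lay under all 4 wild type samples, a 5.36-fold difference (limma, adjusted p = 0.0858). Endothelial markers were bright on every array, with Egfl7 at a mean level of 7.49, and macrophage, neutrophil, platelet and erythroid markers were measured beside them. The first principal component held 58.9% of the variance and did not separate the genotypes, although wild type samples tended higher on it. Wild type samples 1 to 4 stood at -89.8, 99.9, 159 and 23.2, and mutants 1 to 4 at -128, -128, -60.0 and 124. Wild type 2, wild type 3 and mutant 4 stood highest, at 99.9 to 159, and the other 5 arrays at -128 to 23.2. Main results are therefore also given without those 3 arrays. Of all features, 0.0447% (18) were lower in mutants past an adjusted p of 0.05 and 0% (0) were higher.

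The sequences of 3 probes are shown because they belong to the probes whose mutant and wild type levels did not overlap. They are written 5′ to 3′ as deposited. For Rac2 the first 30 of the 60 bases are given.
Cyba probe 1, mm9 chr8:124950893-124951161, minus strand: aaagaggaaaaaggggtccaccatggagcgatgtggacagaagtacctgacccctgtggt
Nox4 probe 1, mm9 chr7:94472458-94487478, plus strand: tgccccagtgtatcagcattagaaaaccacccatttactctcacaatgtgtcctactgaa
Rac2, mm9 chr15:78391452-78391511, minus strand: tcagaaaagcacagaacaaatctacttcag
The 60 bases of Cyba probe 1 were placed over 269 bases of the genome and those of Nox4 probe 1 over 15021, so each of these probes joins sequence from both sides of an intron. The Rac2 probe lies in 1 block. The exon or UTR of a probe is not given here, since no annotation of the mm9 build was used.

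None of the 7 members passed the adjusted threshold for genotype in either direction, where 0.0447% of all features passed lower and 0% higher. By unadjusted p under 0.05 in the same limma fit, 1 member was lower in mutants (Rac2) against 2.68% of all features, and 0 were higher against 0.38%. Of the members, 5 had a difference below 0 and 2 above it, with a median of -0.12, while 47.5% of all features lay below 0 and the median of all features was 0.05. Between litters, 2 of 7 members, Cybb and Ncf4, were higher in litter 2 past the adjusted threshold, against 4.02% of all features. None was lower past it, against 0.898%. The litters did not overlap for 3 members that were higher in litter 2 (Cybb, Ncf1 and Ncf4), against 10.5% of all features, and for 0 that were lower, against 3.57%. Cybb was well above background on the 4 arrays of litter 2 alone. It thus passed the filter on dim probes only through the litter where it was high, so its litter call and lack of overlap carry no independent weight. With a floor its call was lost (limma, adjusted p = 0.168). The median litter difference of all features was 0.32, so litter values below are also given relative to that shift.

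**Figure D1:**
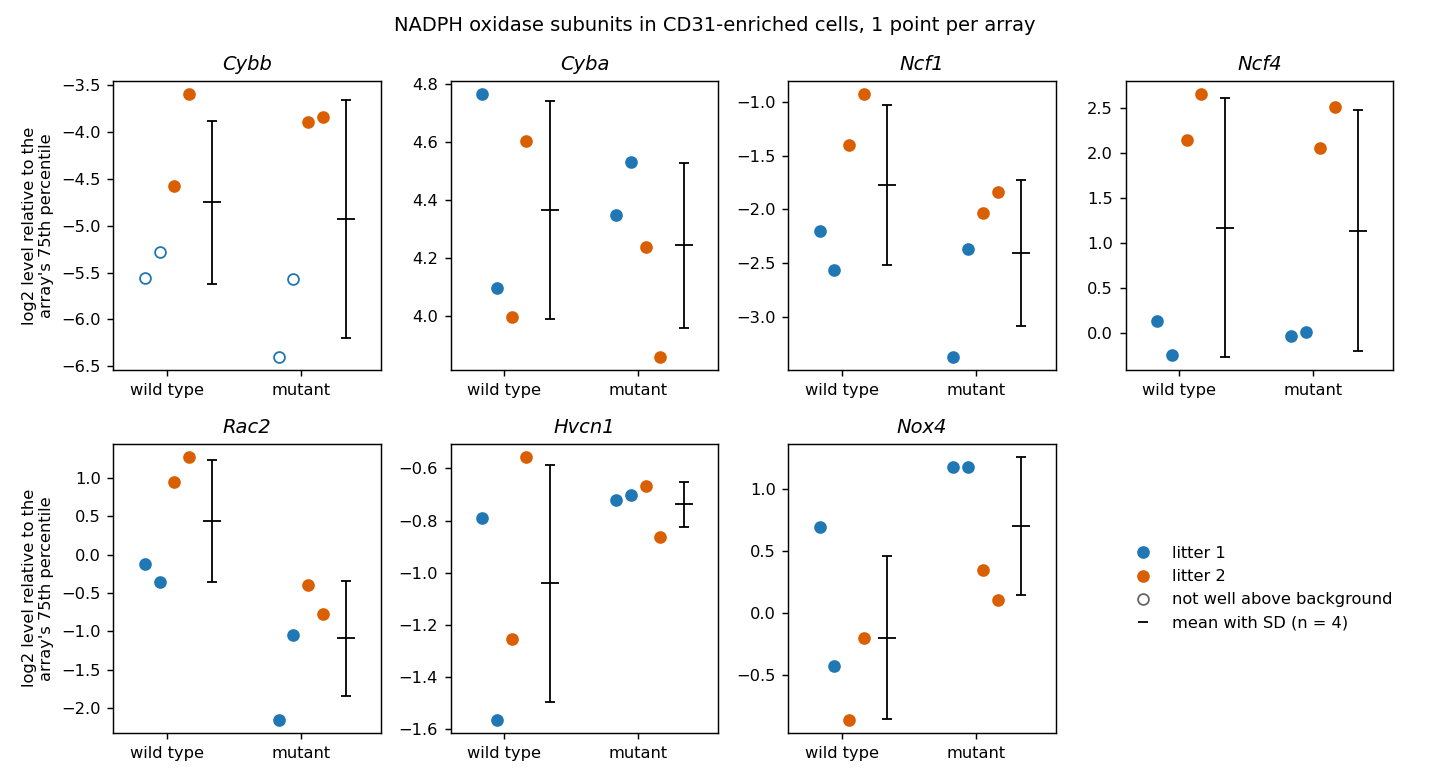
Levels of the 7 members on each of the 8 arrays (y axis, log2 relative to the array's 75th percentile; scales differ between panels), by genotype and coloured by litter, with the mean and SD of 4 arrays. Rac2 is the panel where the genotypes do not overlap, and Ncf4 is the panel where the litters stand farthest apart, at -0.03 and 2.35.

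Cybb, the catalytic membrane subunit of the phagocyte oxidase, separated by litter and not by genotype. Its level was -5.55, -5.28, -4.57 and -3.60 in wild type samples 1 to 4 and -6.40, -5.57, -3.90 and -3.84 in mutants 1 to 4. All 4 arrays of litter 2 lay above all 4 of litter 1, and the genotypes overlapped over the 8 arrays, although in litter 1 both mutants lay under both wild type samples. In litter 1 the probe was not well above background on any array, while in litter 2 it was on all 4. With litter 1 at its bound, the lowest signal well above background on each array, Cybb was at least 1.66-fold higher in litter 2 on this scaling, and with that floor the difference did not pass (limma, adjusted p = 0.168). The measured means of -5.70 ± 0.48 and -3.98 ± 0.42 (SD, n = 4) differed by 1.73 ± 0.35 (SE, limma, adjusted p = 0.0293). Relative to the median of all features this was 1.40. The call was lost when any 1 of wild type 1, wild type 4 or mutants 1 to 4 was left out (adjusted p = 0.0713 to 0.115), under quantile normalization the difference was 0.81 (adjusted p = 0.317), and with normexp added it was 0.36 (adjusted p = 0.333). Without wild type 2, wild type 3 and mutant 4 it was 2.03 (adjusted p = 0.0438). The genotype difference was -0.18 ± 0.64 (SE, limma, adjusted p = 0.892), with a 95% interval from -1.58 to 1.23. With litter as a block the interval ran from -0.96 to 0.61 (limma, adjusted p = 0.757).

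Cyba, the partner that Cybb and Nox4 both need for stability, was measured by 2 probes that did not give the same picture. The brighter one, which stood for the gene, read 4.76, 4.10, 4.00 and 4.60 in wild type samples 1 to 4 and 4.35, 4.53, 4.24 and 3.86 in mutants. The genotypes overlapped, and the difference was -0.12 ± 0.34 (SE, limma, adjusted p = 0.859), with a 95% interval from -0.86 to 0.62. Under quantile normalization it was -0.53 (limma, unadjusted p = 0.0232, adjusted p = 0.717), and with normexp added -0.51 (limma, unadjusted p = 0.0122, adjusted p = 0.728). Probe 1, the one that crosses an intron, read 2.45, 2.14, 2.16 and 2.47 in wild type samples and 2.00, 2.00, 1.96 and 2.04 in mutants. All 4 mutants lay under all 4 wild type samples by this probe, which happened for 0.518% of all 48110 probes fitted. The difference of probe 1 was small, -0.30 ± 0.28 (SE, limma, adjusted p = 0.717), and an exact two-sided permutation test of the 8 arrays gave p = 0.0286, the smallest it can give with 4 against 4. No litter difference was called for Cyba, at -0.26 ± 0.29 (SE, limma, adjusted p = 0.553).

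Ncf1, the organizer that brings the cytosolic complex to the membrane when phosphorylated, was measured by 1 probe on mm9 chr5:134696380-134696439. It read -2.20, -2.56, -1.40 and -0.93 in wild type samples 1 to 4 and -3.37, -2.37, -2.03 and -1.84 in mutants. Mutant 1 was the lowest array, and the genotypes overlapped within litter 1 but not within litter 2. The genotype difference was -0.63 ± 0.47 (SE, limma, adjusted p = 0.717), with a 95% interval from -1.67 to 0.41. With litter as a block the interval ran from -1.33 to 0.07 (limma, unadjusted p = 0.0729, adjusted p = 0.560). All 4 arrays of litter 2 lay above all 4 of litter 1. The litter difference of 1.07 ± 0.31 did not pass the adjusted threshold (SE, limma, adjusted p = 0.0808), and relative to the median of all features it was 0.75. Under quantile normalization it was 0.60 and with normexp added 0.42 (limma, adjusted p = 0.409 each).

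Ncf4, the subunit that binds phosphatidylinositol 3-phosphate on phagosomes, had the widest litter gap of the 7 members. Its level was 0.14, -0.24, 2.15 and 2.66 in wild type samples 1 to 4 and -0.03, 0.02, 2.06 and 2.51 in mutants. Within a litter the genotypes lay close together, and between litters no array overlapped. The litter means were -0.03 ± 0.16 and 2.35 ± 0.29 (SD, n = 4), a 5.19-fold rise in litter 2 (2.38 ± 0.27 on the log2 scale, limma, adjusted p = 0.0117). Relative to the median of all features the rise was 2.05, or 4.15-fold, and 0.524% of all features had a larger litter difference. Without wild type 2, wild type 3 and mutant 4 the rise was 2.27 (adjusted p = 0.0405), and without mutant 2 it was 2.40 with an adjusted p of 0.0558. The genotype difference was -0.03 ± 0.78 (SE, limma, adjusted p = 0.984). Its 95% interval ran from -1.76 to 1.69, since the litter gap enters the spread of each genotype.

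With litter as a block, the 95% interval of the Ncf4 genotype difference ran from -0.65 to 0.58 (limma, adjusted p = 0.942). Within litters, mutants minus wild type came to 0.05 in litter 1 and -0.11 in litter 2. For Cybb the same values were -0.57 and 0.22, for Cyba 0.01 and -0.25, and for Ncf1 -0.49 and -0.77. The genotype effect was not found to differ between litters for any member, with interaction p unadjusted from 0.305 to 0.806 and adjusted p = 1.00 for each (limma), where 1.22% of all features had an unadjusted interaction p under 0.05.

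Rac2, the Rac GTPase of blood cells that completes the active phagocyte oxidase, was the member with the lowest mutant levels relative to wild type. It was measured by a probe spotted 10 times per array (8 usable spots on mutant 1), with an SD between spots of 0.067 to 0.188. The level was -0.12, -0.35, 0.94 and 1.27 in wild type samples 1 to 4 and -2.15, -1.05, -0.40 and -0.77 in mutants. All 4 mutants lay under all 4 wild type samples, as for 0.536% of all features, and the gap between mutant 3 and wild type 2 was narrow. The means of 0.44 ± 0.79 and -1.09 ± 0.75 (SD, n = 4) differed by -1.53 ± 0.50, a level 2.88-fold lower in mutants (SE). The limma fit over all features gave an unadjusted p = 0.0107 and an adjusted p = 0.717. The 95% interval ran from -2.62 to -0.43, and the exact two-sided permutation test gave p = 0.0286, the smallest it can give.

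Within litters the Rac2 difference was -1.36 in litter 1 and -1.69 in litter 2, and both mutants lay under both wild type samples in each, as for 1.89% of all features. With litter as a block the unadjusted p was 9.11e-04 and the adjusted p 0.417 (limma), where 3.77% of all features were lower with an unadjusted p under 0.05 and 0% passed the adjusted threshold. Without wild type 2, wild type 3 and mutant 4 the difference was -1.78 (unadjusted p = 0.0387, adjusted p = 0.900, limma). Rac2 was also higher in litter 2 by 1.18 ± 0.32, which did not pass the adjusted threshold (SE, limma, adjusted p = 0.0666). In the authors' deposited table the log2 fold change of Rac2 was -1.27, with a p of 0.0219 and an adjusted p of 0.624. The probes of Rac2 and Ncf4 both lie on chromosome 15 of the mm9 build, 298 kb apart.

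**Figure D2:**
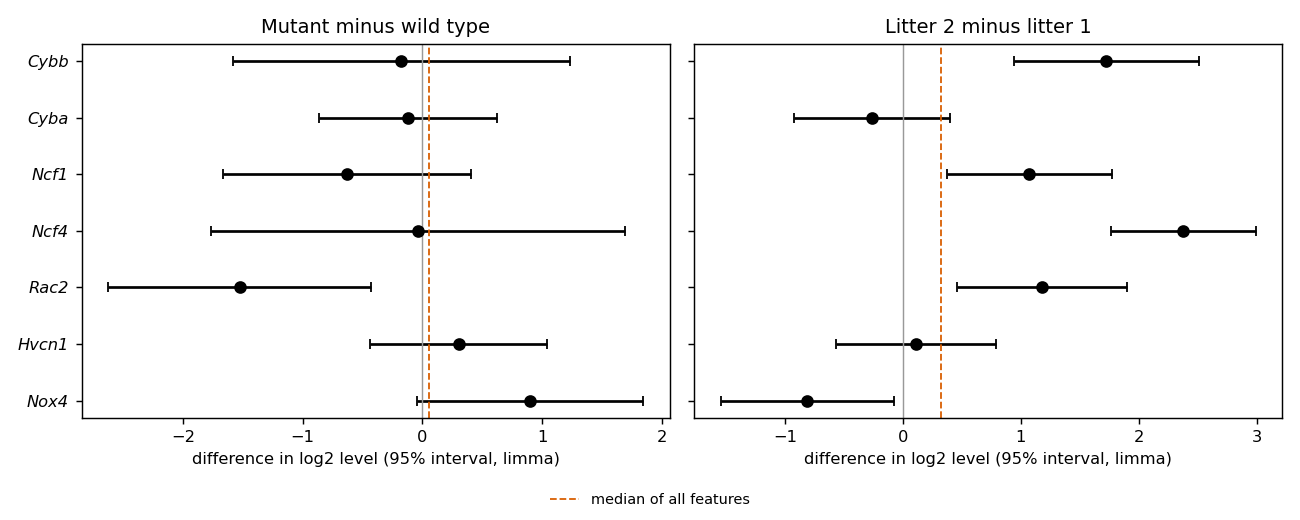
Differences of the 7 members in log2 level (points) with 95% intervals from limma, for mutant minus wild type (left) and litter 2 minus litter 1 (right). The dashed lines mark the median of all features, 0.05 and 0.32, and Rac2 on the left and Cybb, Ncf1, Ncf4, Rac2 and Nox4 on the right have intervals that leave out 0.

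Hvcn1, the voltage-gated proton channel that balances the charge moved by the oxidase, was not called for genotype or litter. The brighter of its 2 probes read -0.79, -1.56, -1.25 and -0.56 in wild type samples 1 to 4 and -0.72, -0.70, -0.67 and -0.86 in mutants. The mutants lay inside the range of the wild type samples, with an SD of 0.09 against 0.45 (n = 4 each). The difference was 0.30 ± 0.33 (SE, limma, adjusted p = 0.717), with a 95% interval from -0.43 to 1.04. The other probe shares 38 bases with the first, so they are not independent, and it gave 0.05 ± 0.33 (SE, limma, adjusted p = 0.946), with an SD of 0.31 in mutants and 0.36 in wild type samples. The litter difference of the brighter probe was 0.11 ± 0.30 (SE, limma, adjusted p = 0.809).

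Nox4, the oxidase that is active without cytosolic subunits, was the member whose mutant levels were highest relative to wild type. The brightest of its 3 probes read 0.69, -0.43, -0.86 and -0.21 in wild type samples 1 to 4 and 1.17, 1.17, 0.35 and 0.10 in mutants. In each litter both mutants lay above both wild type samples, as for 4.12% of all features, while across litters wild type 1 lay above mutants 3 and 4. The difference was 0.90 ± 0.43 (SE), a level 1.86-fold higher in mutants, and the 95% interval from -0.05 to 1.84 took in 0. The limma fit gave it an unadjusted p = 0.0605 and an adjusted p = 0.717. It was 1.04 in litter 1 and 0.76 in litter 2, and 99.3% of all features had a lower genotype difference. The exact permutation test gave p = 0.114 (two-sided). With litter as a block the unadjusted p was 0.0219 and the adjusted p 0.560 (limma), where 1.1% of all features were higher with an unadjusted p under 0.05.

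For genotype the other Nox4 probes ran the same way. Probe 1, the one that crosses an intron, read -2.38, -2.49, -2.33 and -2.54 in wild type samples 1 to 4 and -2.11, -1.95, -1.88 and -1.85 in mutants. All 4 mutants lay above all 4 wild type samples, as for 0.561% of all probes fitted, and the difference was 0.49 ± 0.28 (SE, limma, adjusted p = 0.717). Probe 2 read -0.47, -1.62, -1.65 and -1.27 in wild type samples and -0.08, -0.12, -0.52 and -0.96 in mutants, a difference of 0.83 ± 0.38 (SE, limma, adjusted p = 0.717). In the authors' deposited table the log2 fold changes of the 3 Nox4 probes were 0.75, 1.10 and 1.16, each with an adjusted p of 0.624. Without wild type 2, wild type 3 and mutant 4 the difference of the brightest probe was 0.65 (unadjusted p = 0.181, adjusted p = 0.965, limma). For litter the probes differed: the brightest read -0.81 ± 0.33 in litter 2 relative to litter 1 (SE, limma, adjusted p = 0.164). Probe 2 gave -0.53 ± 0.32 and probe 1 gave 0.09 ± 0.24 (SE, limma, adjusted p = 0.297 and 0.809).

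**Figure D3:**
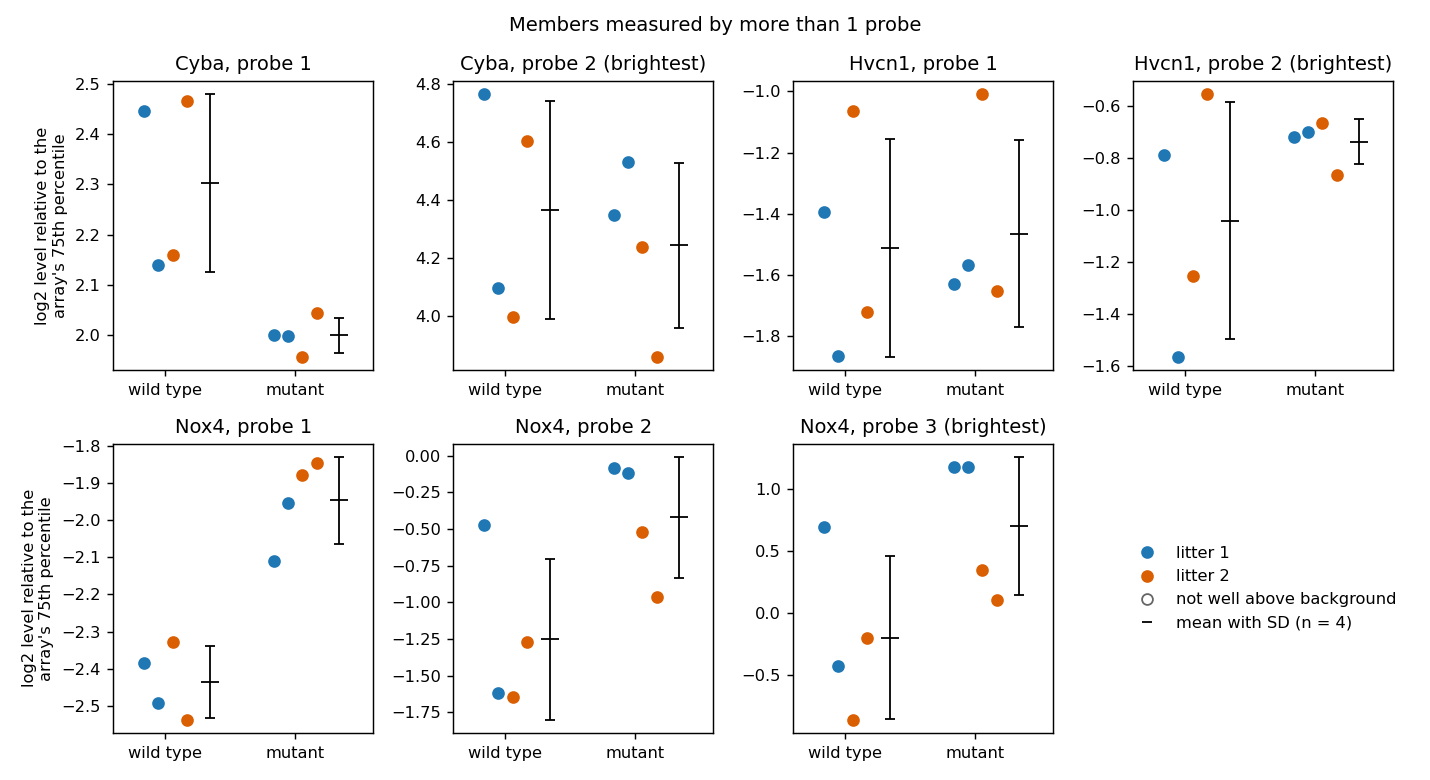
Levels of the 2 Cyba, 2 Hvcn1 and 3 Nox4 probes on each array (y axis, log2 relative to the array's 75th percentile; scales differ between panels), by genotype and coloured by litter, with the mean and SD of 4 arrays. Cyba probe 1 and Nox4 probe 1 separate the genotypes, with mutants at 1.96 to 2.04 and at -2.11 to -1.85, and the other 5 probes overlap.

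Likeness of the members across the 8 arrays is given as a description, since all points share the same arrays, scaling and litters. Pearson's r was 0.918 between Cybb and Ncf4, 0.914 between Ncf1 and Rac2, 0.842 between Cybb and Ncf1 and 0.812 between Ncf1 and Ncf4. Nox4 ran opposite to Rac2 (r = -0.768) and to Ncf1 (r = -0.652). Among all named genes the most alike to Rac2 were Ccdc88b (r = 0.997), Wdfy4 (0.990) and Il1r2 (0.989). Those most alike to Ncf1 were Evi2a (0.980), the beta-glucan receptor gene Clec7a (0.978) and the myeloid transcription factor gene Irf8 (0.978).

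For Ncf4 the 3 most alike genes were Slc6a20a, Otop1 and 1600010M07Rik, each at r = 0.989. For Cybb they were Susd5 (0.992), Cibar2 (0.989) and Insl5 (0.986), and for Nox4 they were Lpgat1 (0.997), Rcn2 (0.997) and Hsdl2 (0.996). For Cyba they were Klk8 (0.976), Rab11a (0.967) and Ssx2ip (0.965). For Hvcn1 they were 1110008P14Rik (0.986), Uhrf1bp1l (0.986) and Cdc25c (0.984). These are the highest of 21428 genes searched over 8 arrays, and no test goes with them.

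The levels that moved with litter were read beside markers of the cells known to make the phagocyte oxidase. Of 11 measured macrophage markers, 9 were higher in litter 2 past the adjusted threshold and 0 were lower, with a median litter difference of 1.49, while 4.02% and 0.898% of all features were called and their median was 0.32. Csf1r, the receptor for macrophage colony-stimulating factor, read 2.65, 2.50, 3.91 and 3.97 in wild type samples 1 to 4 and 1.97, 2.84, 3.81 and 3.52 in mutants, a rise of 1.31 ± 0.28 in litter 2 (SE, limma, adjusted p = 0.0366). The summed signal of the list, in units of the array's 75th percentile, was 9.78 to 16.6 in litter 1 and 27.3 to 37.7 in litter 2, without overlap. By genotype it was 13.7 to 37.7 in wild type samples and 9.78 to 31.9 in mutants, and 0 of 11 markers passed for genotype. Erythroid markers also followed litter, with 4 of 9 higher in litter 2 and a summed signal of 328 to 723 in litter 1 and 1033 to 2010 in litter 2, and 0 of 9 passed for genotype. Of 10 lymphoid markers 1 was higher in litter 2 and 0 passed for genotype. The part of these markers in the litter differences of Cybb and Ncf4 was not tested.

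Of 12 neutrophil markers, 10 read higher in litter 2 (median 0.43) and 0 were called for litter in either direction. For genotype 3 of the 12 fell in mutants, with log2 differences of -4.93 for S100a9, -3.98 for S100a8 and -4.88 for Mpo (limma, adjusted p = 0.0231, 0.0340 and 0.0340). Beside this count and those of the lists below, 0.0447% of all features fell in mutants and 0% rose. Of the 12, 9 had a difference below 0 and 3 above it. The list's median level was -0.70 to -0.24 in wild type samples and -2.84 to -1.88 in mutants. Its summed signal was 41.5 to 85.9 in wild type samples and 53.6 to 82.8 in mutants. That sum is carried mostly by the brightest gene Csf3r, the receptor for granulocyte colony-stimulating factor. Csf3r read 5.46 ± 0.58 in wild type samples and 5.83 ± 0.33 in mutants (SD, n = 4). Other lists beside the Rac2 difference were those of platelets and megakaryocytes (3 of 12 fell, summed signal 56.4 to 112.5 in wild type samples and 12.0 to 22.4 in mutants), mast cells (1 of 7 fell, 5.91 to 13.7 and 1.01 to 1.91) and eosinophils (2 of 6 fell, 3.62 to 8.07 and 0.926 to 2.70). All 12 platelet markers had every mutant under every wild type sample, as for 0.536% of all features. With litter as a block none of the 9 genes of these lists that fell, Mpo among them, passed (limma, adjusted p = 0.0529 to 0.0641). The part of these cells in the Rac2 level was not tested.

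Endothelial markers, beside Nox4, were not called for genotype (0 of 12, median 0.23). The brightest Nox4 probe read lower in litter 2 and probe 1 did not. In that litter 3 of the 12 endothelial markers (Cdh5, Kdr and Esam, named after their values were seen) fell past the threshold and 0 rose. Of all features 0.898% fell and 4.02% rose. The median litter difference of the 12 was -0.92, and that of all features 0.32. The list's median level was 4.56, 3.44 and 4.03 on wild type 2, wild type 3 and mutant 4. On the other arrays it was 4.52 to 5.43. The summed signal of these markers was 331 to 1086 in wild type samples and 408 to 995 in mutants. By litter it was 627 to 1086 in litter 1 and 331 to 607 in litter 2. Of 8 mesenchyme and pericyte markers 0 passed for genotype and 0 for litter, with medians of 0.09 and 0.59. The part of these cells in the Nox4 level was not tested.

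**Figure D4:**
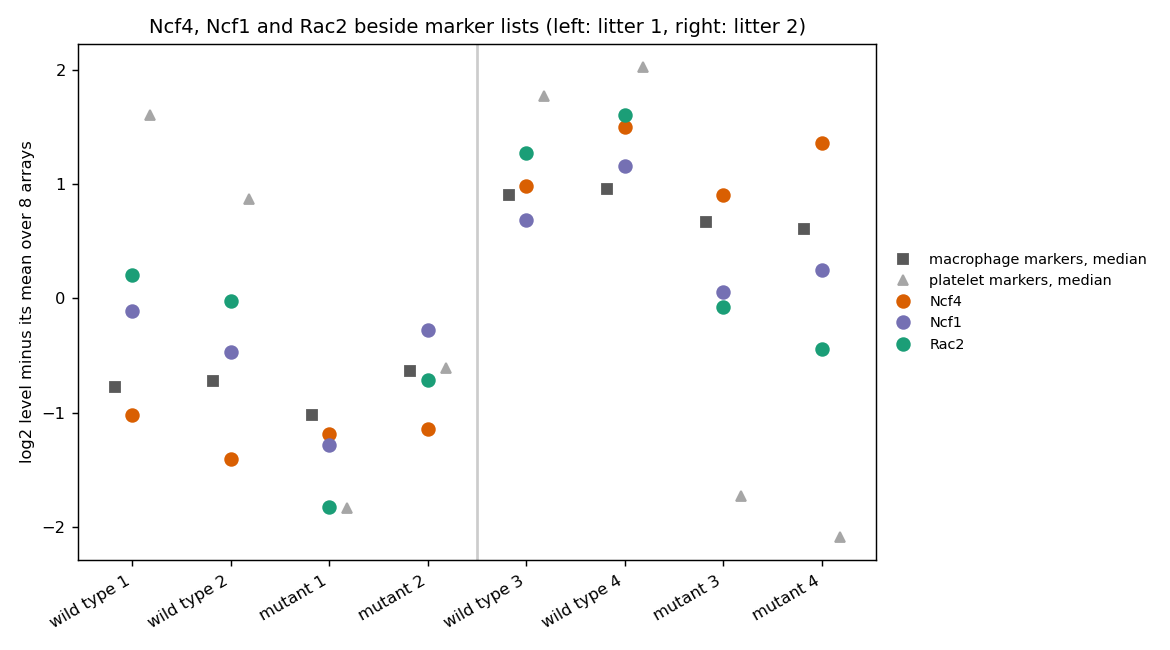
Levels of Ncf4, Ncf1 and Rac2 and the median levels of 11 macrophage markers (squares) and 12 platelet and megakaryocyte markers (triangles) on each array, each minus its own mean over 8 arrays (y axis, log2). Macrophage markers and Ncf4 are higher in every litter 2 array than in any litter 1 array, while platelet markers and Rac2 are lower in every mutant than in any wild type sample.

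Other subunits and relatives of the oxidases did not pass for genotype. Of 15 listed genes 13 were measured, 4 with a difference below 0 and 9 above, while 47.5% of all features lay below 0. Their median was 0.13, with 0 called for genotype or litter. Rac1, the widely expressed Rac that can stand in for Rac2, read 5.48, 4.55, 3.94 and 4.55 in wild type samples 1 to 4 and 5.45, 5.53, 4.53 and 4.23 in mutants. The genotypes overlapped, with a difference of 0.31 ± 0.44 (SE, limma, adjusted p = 0.746). Cybc1, the chaperone of the Cybb and Cyba dimer, differed by 0.26, and Rap1a, a small GTPase found with the flavocytochrome, by -0.81. Of other catalytic subunits Nox1 differed by 0.03, Duox1 by 0.12 and Duox2 by 0.13. The organizer Noxo1 differed by 0.22 and the activator Noxa1 by -0.42, and the Duox maturation factors Duoxa1 and Duoxa2 by 0.39 and -1.06. Poldip2, a partner of Nox4, differed by 0.45. The scaffold proteins Sh3pxd2a and Sh3pxd2b differed by -0.14 and 0.66. Nox3 did not pass the filter on dim probes. Rap1a and Duoxa2 were each well above background on 5 of 8 arrays.

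Genes of the signalling that switches the oxidase on were, in 19 of 27 cases, below 0 for genotype, with a median of -0.63, against 47.5% of all features, and 0 passed the adjusted threshold. By unadjusted p under 0.05 (limma), 4 were lower in mutants and 0 higher, against 2.68% and 0.38% of all features. These 4 were chosen by that p: the kinase gene Btk, the Rac exchange factor gene Vav1, the formyl peptide receptor gene Fpr1 and Fcer1g, the gene of the common Fc receptor gamma chain. Btk read 0.06, 0.67, 0.74 and 0.61 in wild type samples 1 to 4 and -1.77, -1.02, -1.54 and -0.51 in mutants. All 4 mutants lay under the wild type samples, as for 0.536% of all features, with a difference of -1.73 ± 0.37 (SE, limma, adjusted p = 0.531). Vav1 differed by -1.20, Fpr1 by -1.47 and Fcer1g by -1.03 (limma, adjusted p = 0.717 each). The brightest of this list, Arhgdia, Itgam and Prex1, differed by 0.41, 0.27 and 0.26. For litter, 4 of the 27 were higher in litter 2 past the adjusted threshold and 0 lower, against 4.02% and 0.898% of all features. The Fc receptor gene Fcgr3, Clec7a and the adaptor gene Tyrobp were among those higher in litter 2, by 1.58, 1.65 and 1.41 (limma, adjusted p = 0.0258, 0.0285 and 0.0393).

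Transcription factors known to act on phagocyte oxidase genes were below 0 for genotype in 8 of 10 cases. Their median was -0.33 and 0 were past the threshold, while 47.5% of all features lay below 0. Spi1, which encodes PU.1, an activator of Cybb and Ncf1, read -4.85, -3.68, -1.83 and -2.58 in wild type samples 1 to 4 and -4.79, -5.06, -3.39 and -2.88 in mutants. It was higher in all litter 2 arrays than in any of litter 1, by 1.92 ± 0.35 (SE, limma, adjusted p = 0.0221). Of all features, 10.5% lay apart by litter in this way and 4.02% were called higher in litter 2. Spi1 was well above background on only 5 of 8 arrays. Its litter difference thus rests in part on dim readings, and no value with a floor is given for it. Runx1, a factor of blood cell emergence, was the other one called for litter, at 1.13 ± 0.26 (SE, limma, adjusted p = 0.0438). Gfi1, a repressor needed for neutrophil maturation, had every mutant under every wild type sample, as for 0.536% of all features. Its genotype difference was -1.89 ± 0.46 (SE, limma, adjusted p = 0.717). The brightest of the list, Cebpd, Irf1 and Cebpb, differed by 0.10, -0.18 and 0.48.

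Downstream of superoxide, 17 of 19 genes that handle oxidants lay above 0 for genotype, with a median of 0.41. Of all features 47.5% lay below 0, and their median was 0.05. The list's median level was 3.31 to 3.66 on wild type 2, wild type 3 and mutant 4. On the other arrays it was 4.02 to 4.51. For genotype 1 of the 19 passed, lower in mutants, against 0.0447% of all features. This was Mpo, which encodes the myeloperoxidase of neutrophil granules and is also counted among the neutrophil markers. It read 2.23, 2.26, 2.84 and 2.89 in wild type samples 1 to 4 and -2.65, -0.16, -3.47 and -3.03 in mutants, without overlap, and fell by 4.88 on the log2 scale (29.5-fold, limma, adjusted p = 0.0340, and 0.0641 with litter as a block). The brightest of the list, the superoxide dismutase gene Sod1, the glutathione peroxidase gene Gpx1 and the peroxiredoxin gene Prdx2, differed by 0.42, 0.41 and 0.51 (limma, adjusted p = 0.717 each).

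Sequence before the gene start was at hand for 4 of the 7 members (Cybb, Cyba, Ncf1 and Nox4), from RefSeq on GRCm38.p6. It was searched on both strands for GATAA alone, a form of the letters that GATA factors such as Gata2 bind. The 250 bases before the start of Cybb and of Cyba, the pair that makes the flavocytochrome, are shown because each held 2 matches (capitals, TTATC being GATAA on the other strand).
Cybb, chrX:9469325-9469574, minus strand: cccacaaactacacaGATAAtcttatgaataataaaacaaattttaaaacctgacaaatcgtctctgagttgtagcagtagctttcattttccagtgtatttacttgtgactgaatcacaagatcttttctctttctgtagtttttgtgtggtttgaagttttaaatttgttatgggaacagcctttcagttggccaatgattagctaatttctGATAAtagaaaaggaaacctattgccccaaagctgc
Cyba, chr8:122432941-122433190, minus strand: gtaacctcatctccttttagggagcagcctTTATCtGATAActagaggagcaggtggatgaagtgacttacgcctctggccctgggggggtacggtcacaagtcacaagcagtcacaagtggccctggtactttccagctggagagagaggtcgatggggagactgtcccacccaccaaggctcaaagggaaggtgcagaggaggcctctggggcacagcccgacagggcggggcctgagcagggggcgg
The matches began 235 and 36 bases before the start in Cybb and 220 and 214 bases before it in Cyba, and those of Cyba are separated by a single base. The windows of Ncf1 and Nox4 held 0 matches to GATAA, and other forms were not searched for. Of 32851 promoter windows of this length, 22.6% held at least 1 match and 4.28% at least 2. A match describes the letters only, and Cybb and Cyba were not called for genotype.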

How the data were processed

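RNA of 8 embryos was measured on 8 arrays. Per the file headers, the deposited spot intensity comes from Feature Extraction 10.7.3.1 with the mm9 annotation and was background-subtracted within the array. The authors' deposited table holds log2 values per sample, a log2 fold change with its p-value and adjusted p, and the t and B scores of limma, which the submitters' processing notes name. Those scores were not used. The scale of its columns was set against the scanner values: they follow the array's log2 signal centred near its median.

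The level is log2 of the processed intensity less the 75th percentile of the array's non-control spots. Spots flagged as outliers by the scanner software (130 to 521 on an array) were dropped, and the remaining spots of each probe averaged. Probes well above background on at least 4 arrays were kept (48121 of 55681), and the brightest stood for a gene. Of the probes, 26762 were named by RefSeq accession, 4359 by symbol or synonym and 2044 by the name in the file, 22417 had no name, and 99 lost their name because the chromosomes differed. In 709 features a spot was missing. Tests used limma 3.58.1 under R 4.3.3 (eBayes, two-sided, Benjamini-Hochberg over 40299 features, threshold 0.05), with genotype alone, with litter and genotype, and with their interaction. A "fell" or "rose" passed that threshold. Where every array of a group was too dim, its mean was set to a bound, and the fold is "at least". The code was tested on simulated data.

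The members, gene lists, tests and alternatives were chosen with earlier results of these data known. Named are all members and their probes, Gata2, the other oxidase genes, up to 4 genes past the threshold and the 3 brightest of each list where a result touches it, and the 3 genes most alike to each member. Genes named for an unadjusted p, for litter, or for groups that do not overlap (Btk, Vav1, Fpr1, Fcer1g, Gfi1, Fcgr3, Clec7a, Tyrobp, Spi1 and Runx1) were chosen after their values were seen. Pairing comes from the labels, which give the litter. Deviations of same-numbered samples correlated at 0.62, -0.03, -0.09 and -0.16. Correlations of so few arrays cannot show whether the numbers within a litter pair embryos. A block by number is therefore given only as an alternative.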

Additional observations from a re-analysis of the deposited data

How the results depend on the processing

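The number of features past the threshold for genotype, 18, was 40 with normexp, 1 with quantile normalization, 5 with both, 0 with the 75th percentile of probes detected on all arrays, 8 without the filter, 30 with a floor, 31 with trend and robust fitting and 52 from the authors' log2 values. It was 0 with a replicate block by litter (paired by litter) and 0 with a replicate block by number, where 1963 and 1395 features had an unadjusted p under 0.05 (limma). Array weights gave 19346, with weights from 0.25 for mutant 4 to 4.04 for mutant 1. Leaving out 1 array at a time gave 0 to 24, and leaving out wild type 2, wild type 3 and mutant 4 gave 0 (2207 unadjusted). Array weights also took Rac2 (-1.72, adjusted p = 0.0255) and Nox4 (1.46, adjusted p = 0.0169) past the threshold. No other setting called a member for genotype, the replicate block included.

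Rac2 stayed below 0 (-1.79 to -1.17) and Nox4 above it (0.65 to 1.46) in all 24 alternatives, and Ncf1 below 0 (-1.02 to -0.30). The uncalled genotype differences of other members changed sign. Cybb turned to 0.12 with normexp, 0.010 with quantile normalization, 0.089 with median scaling and from the authors' values, and 0.12 with a floor. Leaving out 1 array gave -0.54 to 0.31 for Cybb (above 0 without wild type 4, mutant 1 or mutant 2), -0.24 to 0.013 for Cyba (above 0 without wild type 1 or mutant 4) and -0.51 to 0.46 for Ncf4 (above 0 without wild type 3, wild type 4, mutant 1 or mutant 2). Cyba turned to 0.14 with median scaling and the authors' values and to 0.19 with array weights, while it was -0.53 with quantile normalization and -0.51 with normexp added. Ncf4 turned to 0.23 with median scaling and the authors' values. Hvcn1 turned to -0.024 without the 3 arrays. Median scaling moved the median of all features to 0.32. The cause was not tested.

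For litter, settings chosen after seeing the data were each array left out, quantile normalization, normexp with it, and a floor. Ncf4 ran from 2.26 to 2.64 and passed in 11 of 12 settings. Cybb ran from 0.36 to 2.03, with 0.73 under the floor (adjusted p = 0.168). Ncf1 ran from 0.42 to 1.30. Cyba turned to 0.32 with quantile normalization and 0.28 with normexp added. Hvcn1 turned to -0.12 and -0.14 there, and leaving out 1 array gave -0.079 to 0.23 (below 0 without wild type 2 or wild type 4). Nox4 passed without the 3 arrays (-0.86, adjusted p = 0.0410). Low signal over background limits Cybb, Spi1, Rap1a and Duoxa2.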
